A study of Mus musculus with 10 samples.

Results

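7SK, 7SL, RNase P and RNase MRP are short structured RNAs that work as the core of ribonucleoprotein particles, and they were among the most abundant rows in the table of retinal RNA. The rows described here were taken by gene symbol: Rn7sk (7SK RNA), Rn7s1 and Rn7s2 (a pair of genes for 7SL RNA), Rpph1 (the RNA of RNase P), Rmrp (the RNA of RNase MRP), and the mRNAs of the 7SK partners Larp7 and Hexim1. All 7 symbols were found among the 25905 listed genes. The 5 RNAs were chosen by their high mean level in these same libraries, so their levels are a description and were not tested.

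The study induced myopia in wild-type C57BL/6J mice with a lens of −20 dioptres worn over 1 eye for 10 days from postnatal day 24, under ketamine and xylazine anaesthesia when the goggle was fitted. The fellow eye of each animal had no lens, and the retinas were collected at postnatal day 34. Total RNA of the left and right retina of 5 mice (numbered 61, 64, 65, 66 and 68) was sequenced after depletion of ribosomal RNA, giving 5 libraries per side. Which eye wore the lens is not stated in the labels. The groups are therefore left and right retinas, and lens-treated and fellow eyes may be mixed within a side.

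7SK RNA holds the kinase P-TEFb, which releases paused RNA polymerase II, in an inactive particle. Larp7 binds the end of 7SK and keeps it stable, and Hexim1 is the protein that inhibits the kinase once it is bound to 7SK. 7SL RNA is the scaffold of the signal recognition particle, which directs ribosomes making secreted and membrane proteins to the endoplasmic reticulum. RNase P trims the leader from precursor tRNAs, and RNase MRP, which shares most of its proteins, cuts precursor ribosomal RNA. The 4 kinds of RNA are made by RNA polymerase III and carry no poly(A) tail, and libraries that select poly(A) RNA largely miss them.

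The sequences below show the letters that Rn7sk holds as repeats and a short run that Rpph1 and Rmrp share. They are GENCODE M21 transcripts (GRCm38), written 5′ to 3′ with T for U. In Rn7sk (bases 1 to 300 of 331) capitals mark every GATC, the letters of the repeats to which Hexim1 is known to bind. Not every GATC marked need be a binding site. In Rpph1 (bases 1 to 300 of 319) and Rmrp (all 281 bases) they mark a run of 9 bases, the greatest length these RNAs share. Another shared run of that length, nearer the 3′ end of both, is not marked. The RNAs were not aligned.
Rn7sk: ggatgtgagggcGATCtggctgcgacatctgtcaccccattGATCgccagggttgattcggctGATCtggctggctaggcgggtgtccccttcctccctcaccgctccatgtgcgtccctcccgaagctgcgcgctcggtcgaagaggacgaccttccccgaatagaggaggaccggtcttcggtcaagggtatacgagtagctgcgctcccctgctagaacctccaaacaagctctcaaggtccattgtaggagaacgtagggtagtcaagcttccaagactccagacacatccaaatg
Rpph1: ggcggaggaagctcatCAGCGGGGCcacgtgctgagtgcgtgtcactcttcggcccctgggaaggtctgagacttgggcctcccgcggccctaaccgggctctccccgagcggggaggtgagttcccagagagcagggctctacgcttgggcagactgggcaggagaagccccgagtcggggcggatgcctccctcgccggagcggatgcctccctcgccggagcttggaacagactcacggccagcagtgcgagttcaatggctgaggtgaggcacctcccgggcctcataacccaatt
Rmrp: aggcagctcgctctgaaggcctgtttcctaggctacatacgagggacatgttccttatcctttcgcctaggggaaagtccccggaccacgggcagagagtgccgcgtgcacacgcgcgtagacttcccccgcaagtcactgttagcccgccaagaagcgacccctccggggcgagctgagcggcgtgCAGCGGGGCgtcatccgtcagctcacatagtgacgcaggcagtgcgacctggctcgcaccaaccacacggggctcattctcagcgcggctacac

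Rn7s1 and Rn7s2 had the same 300 bases, with 0 differences. Rn7s1 lies on the plus strand of chromosome 12 (69159295 to 69159594) and Rn7s2 on the minus strand of the same chromosome (69361182 to 69361481). Their deposited values differed by at most 0.08 CPM (counts scaled to the sequencing depth of each library) in any library, or 0.000863% of the level of Rn7s1. Both rows therefore carry a single measurement, and reads from one gene cannot be told from reads of the other. They are given below as a sum, the 7SL pair, wherever a level is described. If each read was counted in both rows, the sum counts 7SL reads 2 times over, and the level of 7SL is that of 1 row. Rn7s6, a related row, was listed at a mean of 13.8 CPM.

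Rn7sk (chromosome 9, 78175303 to 78175633, minus strand) held GATC at 3 positions, starting at bases 13, 42 and 64. Of the 238 small RNA genes of 281 to 381 bases in the annotation, 78.2% held GATC at least once and 26.1% held it at least 3 times. Rn7sk itself and the genes that resemble it were not left out of this count. These percentages thus do not show how common GATC is among unrelated small RNAs. A blastn search among annotated genes of the miscellaneous RNA and ribozyme classes found 195 that resemble Rn7sk, of which 27 were in the table. Those 27 summed to a mean of 3.90 CPM, or 0.0260% of Rn7sk. The 5 listed relatives of 7SL, Rn7s6 among them, summed to 13.97 CPM, or 0.0777% of the pair. Rpph1 (chromosome 14, 50807449 to 50807767, minus strand) had 2 listed relatives that summed to 0.378 CPM. Rmrp (chromosome 4, 43492783 to 43493063, minus strand) had no relative by this search, and its longest run in common with Rpph1 was 9 bases. Within these classes, the listed signal of each kind of RNA stood almost wholly on the rows described here. Rmrp overlaps Ccdc107 on the opposite strand, a gene at 7.42 to 10.4 CPM in the 10 libraries, and the sources used here do not say whether counting used the strand.

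The listed genes of a library summed to 321661 to 346696 CPM. By the step between low values, these were about 29700000 to 37300000 counts, with 89.7 to 113.8 counts per CPM. The lowest implied count was 34730 for the RNA rows (Rmrp) and 387 for the mRNAs (Larp7), and counting alone then gives a spread of 0.537% and 5.08%. The rod markers (6 genes, Sag among them) summed to 10942 to 12683 CPM in every library. The lens markers (7 genes) were highest on the right in mouse 65, with 805.5 CPM against 7.32 to 110.85 CPM elsewhere. The muscle markers (5 genes) were highest on the left in mouse 68, with 239.8 CPM against 26.3 to 31.9 CPM elsewhere. Microglia markers (4 genes) summed to 4.00 to 5.49 CPM and blood markers (5 genes) to 20.999 to 49.9 CPM.

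The 7 members took 9.70% to 13.2% of the listed total, with a median of 10.5%. With 7SL counted once, Rn7s2 being left out of members and total, the share was 7.58% to 10.09%, with a median of 8.28%. The share was 13.2% in the left and 12.1% in the right retina of mouse 61, each above every library of the other mice. Given left before right, mouse 64 had 11.8% and 9.70%, mouse 65 had 10.7% and 10.4%, mouse 66 had 9.96% and 10.1%, and mouse 68 had 11.2% and 9.98%. The left retinas averaged 11.4% ± 1.23 and the right 10.4% ± 0.937 (SD, n = 5 each). The left was above the right in 4 of 5 mice, and the sides overlapped widely. By kind, Rn7sk took 4.15% to 5.00% of the listed total, the 7SL pair 4.60% to 6.93%, Rpph1 0.547% to 1.16% and Rmrp 0.115% to 0.211%. The mRNAs took far less, 0.00126% to 0.00203% for Larp7 and 0.00336% to 0.00461% for Hexim1. The listed total differed by 25035 CPM between its lowest and highest library, and by 11274 CPM once the members were taken out.

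**Figure D1:**
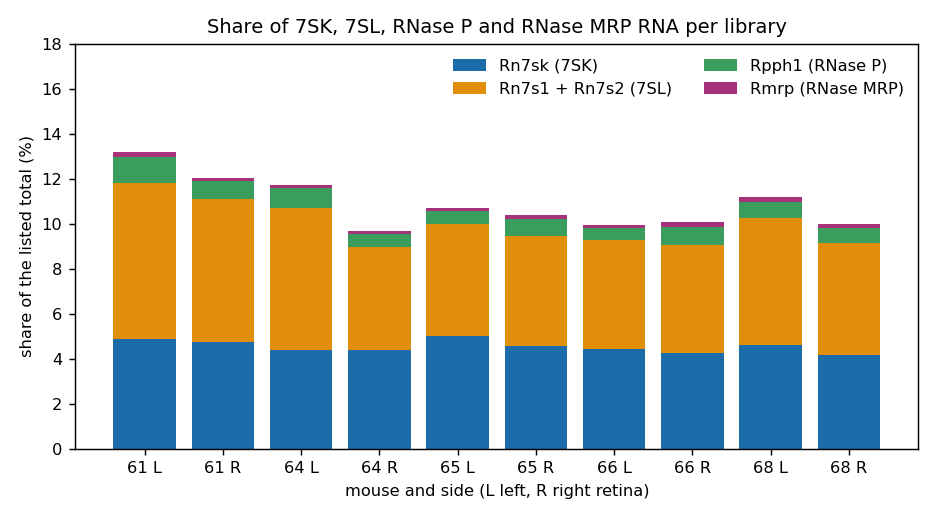
Share of the listed total, in percent, taken by 7SK, 7SL (both rows summed), RNase P and RNase MRP RNA in each library, by mouse and side. 7SK and 7SL make up most of every bar, and the bars run from 9.69% in the right retina of mouse 64 to 13.2% in the left retina of mouse 61.

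By mean CPM, Rn7sk was the first of all rows, Rn7s1 and Rn7s2 stood at ranks 3 and 4, Rpph1 at rank 7 and Rmrp at rank 28. Malat1, a nuclear long noncoding RNA, was at rank 2. CPM is not divided by length. Per kilobase of exon, the mean level was 45308 CPM for Rn7sk, 59948 CPM for the 7SL pair (29974 CPM for 1 row), 7732 CPM for Rpph1 and 1934 CPM for Rmrp, against 1395 CPM for Malat1. The 5 RNA rows held the first 5 ranks per kilobase among 25272 rows with an annotated length. Hexim1 and Larp7, ordinary mRNAs, had means of 3.57 and 2.29 CPM per kilobase. RNAs this short are close to the length of a library fragment, so their level per kilobase is less certain than that of long transcripts.

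The order of 7SL and 7SK depended on whether the 7SL rows are added. In CPM the pair was above Rn7sk in 10 of 10 libraries, at 1.00 to 1.44 times its level and with overlapping ranges, whereas 1 row of 7SL was above Rn7sk in 0 of 10. The order per kilobase turned in the same way. Rn7sk was above Rpph1, Rpph1 above Rmrp and Hexim1 above Larp7 in 10 of 10 libraries, with ranges that did not overlap.

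7SK RNA varied least of the 5 RNA rows. Rn7sk measured 16991.5, 14569.8, 16285.1, 14225.4 and 15208 CPM in the left retinas of mice 61, 64, 65, 66 and 68, and 15865.4, 14129.1, 15212.3, 14006.2 and 13478.1 CPM in their right retinas. The right value was the lower of the pair in all 5 mice, although the sides overlapped. The highest library was 1.26 times the lowest. The left side averaged 15456 ± 1163 CPM and the right side 14538 ± 973 CPM (SD, n = 5 per side). Right minus left was −0.09 on the log2(CPM + 1) scale (SE 0.06, 95% interval −0.22 to 0.05), which did not pass (limma with the mouse as a block, adjusted p = 0.9996). Of 14210 genes tested, 0% passed between the sides, 2.34% had an unadjusted p under 0.05, and 2.01% had the lower value on the right in 5 of 5 mice, as Rn7sk had. As a share of the listed total Rn7sk was also lower on the right in 5 of 5 mice, though in mouse 64 the shares were 4.39% on both sides.

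7SL RNA varied more than 7SK RNA, with the highest library at 1.62 times the lowest. The pair summed to 24033.6, 21027, 16290.5, 15630.7 and 18542.4 CPM in the left retinas of mice 61, 64, 65, 66 and 68, and to 21301, 14805, 16239.8, 15662.8 and 16311.2 CPM in the right. Both retinas of mouse 61 were above all others, and mice 65 and 66 had almost equal fellow eyes. In mouse 64 the right retina held 0.704 times the left, the widest gap between fellow eyes. Per the labels, corrupt second reads had been taken out of the raw data of that right retina. The left side averaged 19105 ± 3475 CPM and the right side 16864 ± 2553 CPM (SD, n = 5 per side), with overlap. For Rn7s1, as for Rn7s2, right minus left was −0.17 (SE 0.08, 95% interval −0.35 to −1.3e-05), with 4 of 5 mice lower on the right, an unadjusted limma p of 0.04999 and an adjusted p of 0.9996. Of all genes tested, 0.809% had an unadjusted p under 0.05 and were lower on the right. Without mouse 64 the difference was −0.09 (unadjusted p = 0.17).

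Between mice, the 7SL pair averaged 22667 CPM over both retinas of mouse 61. Mouse 64 averaged 17916 CPM, mouse 68 17427 CPM, mouse 65 16265 CPM and mouse 66 15647 CPM. For Rn7s1 the mouse means spanned 0.53 log2 units (limma's moderated F-test, unadjusted p = 0.0120, adjusted p = 0.261). It rested on mouse 61, without which the unadjusted p was 0.599 and the adjusted p 0.944. Without mouse 64 the adjusted p was 0.067. Among all genes tested 0.57% passed that test and 13.8% had an unadjusted p under 0.05. None of the 7 members passed it. Rn7sk spanned 0.22 log2 units between mice (adjusted p = 0.468).

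Of the members, the RNAs of RNase P and RNase MRP differed most between fellow eyes, in opposite directions in different mice. Rpph1 measured 4025.1, 2889.8, 1830.3, 1761.0 and 2466.9 CPM in the left retinas of mice 61, 64, 65, 66 and 68, and 2634.8, 1891.8, 2420.0, 2663.6 and 2082.4 CPM in the right. The left retina was higher in mice 61, 64 and 68 and the right in mice 65 and 66. Right over left was 0.655 for both mouse 61 and mouse 64 and 0.844 for mouse 68, while mouse 65 had 1.32 and mouse 66 had 1.51.

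Rmrp measured 730.2, 526.8, 372.9, 401.2 and 666.9 CPM on the left, and its right values were 521.9, 393.5, 610.6, 667.7 and 542.4 CPM, in the same order of mice. Its right retina was likewise the lower in mice 61, 64 and 68 (0.715, 0.747 and 0.813 times the left) and the higher in mice 65 and 66 (1.64 and 1.66 times). The ratio of Rpph1 to Rmrp lay between 3.70 and 5.51 in the 10 libraries, a narrower spread than that of Rpph1 itself, whose highest library was 2.29 times the lowest. Because the mice went both ways, right minus left was small: −0.09 for Rpph1 (SE 0.17, 95% interval −0.46 to 0.28) and 0.05 for Rmrp (SE 0.18, 95% interval −0.35 to 0.45), each with an adjusted limma p of 0.9996.

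**Figure D2:**
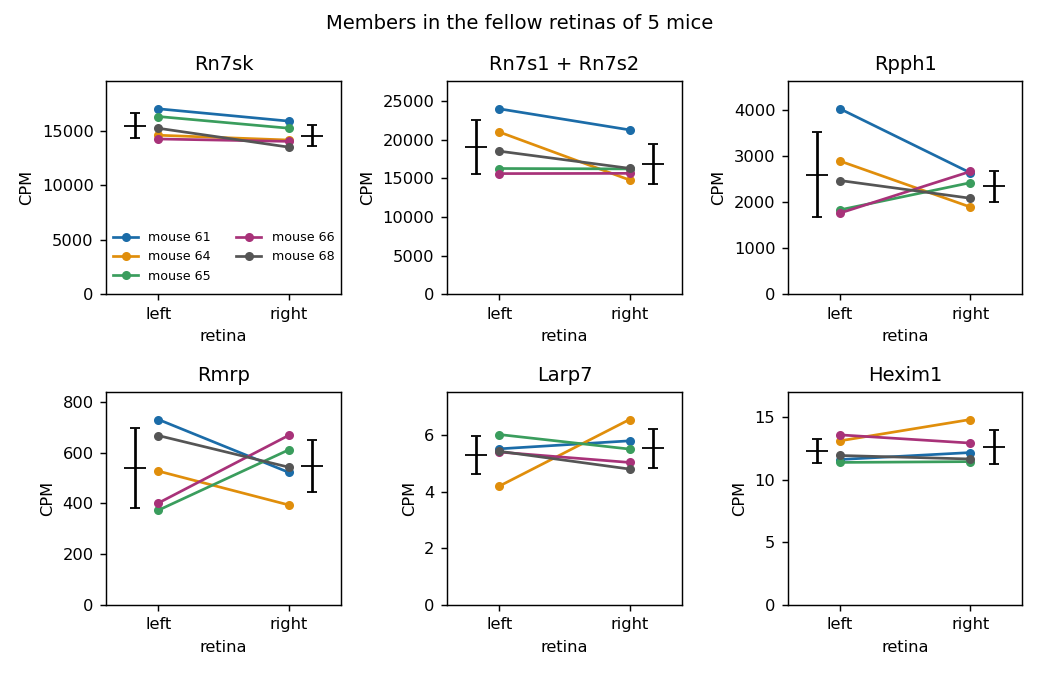
Level in CPM of each RNA and of the Larp7 and Hexim1 mRNAs in the left and right retina, with a line per mouse and the mean ± SD of each side (n = 5) in black. The lines of Rn7sk all slope down to the right, while those of Rpph1 and Rmrp cross, with mice 65 and 66 going up and the other mice down.

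The size of the fellow-eye difference, whatever its direction, averaged 0.49 log2 units for Rpph1 and 0.53 for Rmrp. This was more than in 99.3% and 99.4% of the genes tested, although some other small RNAs, given below, had gaps as wide. For the other members the size was smaller. It was 0.17 for Rn7s1, 0.19 for Larp7, 0.09 for Rn7sk and 0.07 for Hexim1, against a median of 0.11 over all genes tested. Of the 57 other genes whose mean level was within 2-fold of Rmrp, 0 had a larger difference, and the largest was 0.38. For Rpph1 3 genes lay within 2-fold of its level, and the largest difference among them was 0.18. Outside the members, 1 gene lay within 2-fold of Rn7sk, with a difference of 0.05, below that of Rn7sk. For Rn7s1 2 genes did so, the larger difference being 0.12. Among the 20 rows with the highest mean CPM, Rpph1 had the largest coefficient of variation over the 10 libraries (27.2%), followed by both 7SL rows (17.3%). Pdc, which encodes phosducin, had 13.2%, the mitochondrial gene mt-Co1 11.7%, Rn7sk 7.47%, the rod transducin gene Gnat1 4.14% and Malat1 2.87%.

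**Figure D3:**
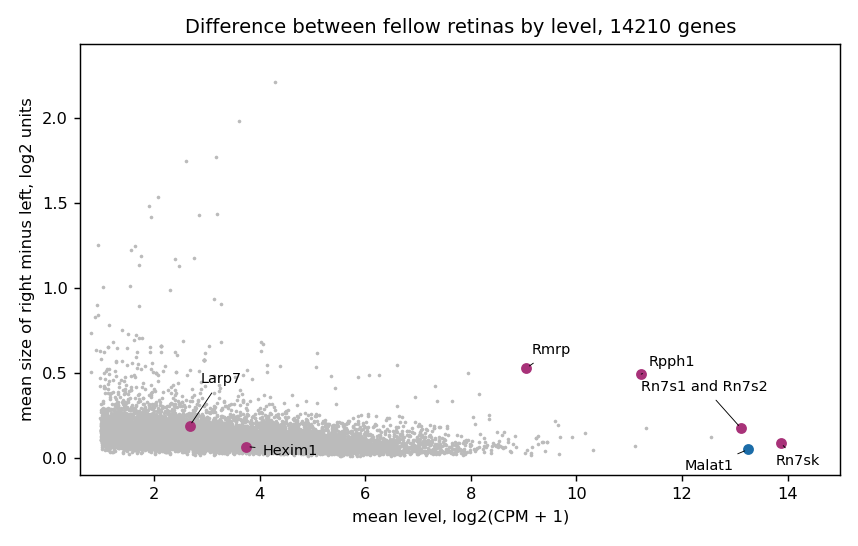
Mean size of the right-minus-left difference over 5 mice (log2 units) against mean level (log2(CPM + 1)) for 14210 genes in grey, with the members in purple and Malat1 in blue. Rpph1 and Rmrp, at 0.49 and 0.53, lie above the grey points of like level. Rn7sk, at 0.09, lies below the median of all genes, 0.11, but above the 1 gene within 2-fold of its level, at 0.05.

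Other measures moved with Rpph1 and Rmrp, and their part in the result was not tested. The other small structured RNAs, a list of 26 of which 22 were in the table, had a left sum of 294.2 CPM and a right sum of 245.3 CPM for mouse 61. The left and right sums were 234.5 and 143.5 CPM for mouse 64, 139.7 and 202.2 CPM for mouse 65, 156.4 and 198.3 CPM for mouse 66, and 217.1 and 181.8 CPM for mouse 68. The side that was higher was thus the same as for Rpph1 and Rmrp in each of the 5 mice. This did not hold for every kind of small RNA. In mouse 66, where Rpph1 and Rmrp were higher on the right, right over left was 0.916 for the sum of all rows annotated as snRNA and 0.967 for that of scaRNA, and both had the direction of Rpph1 in the other mice. The snoRNA rows had that direction in all 5 mice. Rn7s6, the relative of 7SL, was at 1.02, 0.967 and 0.908 in mice 61, 65 and 66, against the direction of Rpph1. Scarna10, a small Cajal body RNA and the largest of the list, ranged from 60.3 to 157.8 CPM.

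The sum of the protein-coding transcripts of mitochondrial DNA went the other way in each of the 5 mice, with right over left of 1.08, 1.26, 0.906, 0.872 and 1.13 in mice 61, 64, 65, 66 and 68. The medians of every length class looked at had the same signs as Rpph1 and Rmrp in the 5 mice. The part of transcript length, or of a shift shared by most genes of a library, was not tested. Over 547 genes whose longest annotated transcript is under 800 bases, the median right minus left was −0.08, −0.10, 0.07, 0.03 and −0.01 log2 units in the same mice. Over the 2441 genes of 800 to 2000 bases it was −0.065, −0.054, 0.057, 0.046 and −0.011, the largest of the classes in mouse 66. Over the 11037 genes of 2000 bases or more it was −0.031, −0.015, 0.042, 0.036 and −0.0086, smaller than in the short genes in mice 61, 64, 65 and 68. These classes were chosen after the values were seen, and 98.7% of the genes tested had a length.

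**Figure D4:**
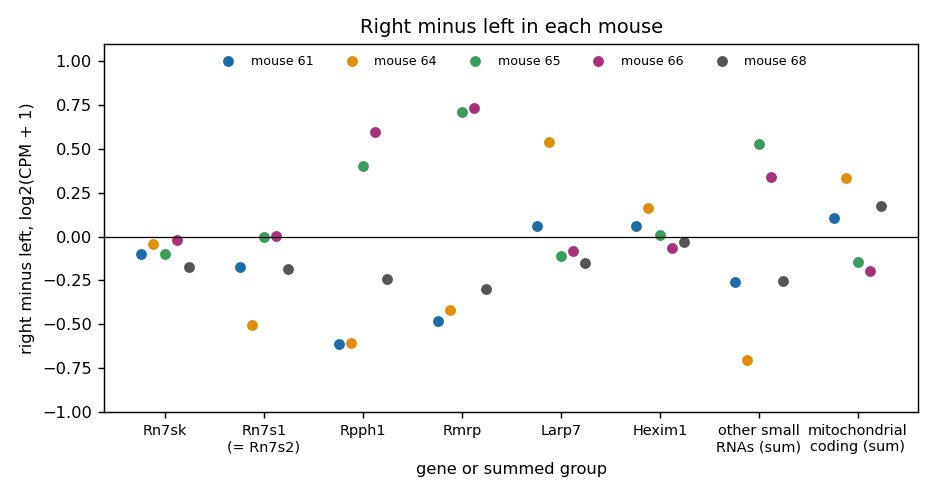
Right minus left on the log2(CPM + 1) scale in each mouse for the members (Rn7s1 stands for both 7SL rows), for the summed other small structured RNAs and for the summed mitochondrially encoded mRNAs. Rpph1, Rmrp and the other small RNAs lie above 0 in mice 65 and 66 and below 0 in mice 61, 64 and 68, and the mitochondrial sum has the opposite sign in each mouse.

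The profile over the 10 libraries gave further likenesses, measured as the root mean square distance between centred log2(CPM + 1) values. Among the nearest to Rpph1, whose own profile has a size of 0.34, were Tsen34, a subunit of the tRNA splicing endonuclease (0.09), Rpl17-ps10 (0.11) and Fau (0.11). Nearest to Rmrp (own size 0.33) were the histone genes H4c8 (0.08) and H4c3 (0.11), the small nucleolar RNA Snora73b (0.14) and Kptn (0.15). Of the members, Rn7s1 was nearest to Rpph1 (0.199, at place 272 in the order of nearness), followed by Rmrp (0.204, at place 311). Nearest to the 7SL pair (own size 0.22) were Gsg1 (0.04), Rps19 (0.07), Ufc1 (0.08) and Aqp1 (0.08). Among the nearest to Rn7sk (own size 0.10) were Ggct (0.04), Zfp810 (0.04) and Snw1 (0.04). Such distances favour genes of like spread, and the 10 libraries come from 5 animals.

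The mRNAs of the 7SK partners were weak beside 7SK itself. Hexim1 (chromosome 11, 103116231 to 103119725) measured 11.6, 13.1, 11.4, 13.6 and 11.96 CPM in the left retinas of mice 61, 64, 65, 66 and 68, and 12.2, 14.8, 11.5, 12.95 and 11.7 CPM in their right retinas. Both retinas of mouse 64 and of mouse 66 were above those of the other 3 mice. The mouse means spanned 0.27 log2 units (limma's F-test, unadjusted p = 0.0261, adjusted p = 0.315). Right minus left was 0.03 (SE 0.05, 95% interval −0.08 to 0.14), with an adjusted limma p of 0.9996.

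Larp7 (chromosome 3, 127536714 to 127553349) measured 5.51, 4.19, 6.01, 5.39 and 5.42 CPM on the left, and its right values were 5.79, 6.54, 5.50, 5.03 and 4.79 CPM. Its lowest and its highest library were the left and the right retina of mouse 64, at a ratio of 1.56. In the other mice the right retina held 0.884 to 1.05 times the left. The right retina of mouse 64, from which corrupt second reads had been taken out, also held the highest Hexim1 value. The part of that removal in these values was not tested. For Larp7, right minus left was 0.05 (SE 0.10, 95% interval −0.16 to 0.27), with an adjusted limma p of 0.9996. In whole retina, fewer cells of a type and less RNA per cell cannot be told apart.

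Among the other genes of these particles, and of the machinery that makes such RNAs, none passed either test. Of 21 further genes of the 7SK particle and P-TEFb, 10 were higher and 11 lower on the right on average, with a median of −0.003 log2 units against 0.002 over all genes tested. Mepce, which caps 7SK, averaged 10.7 CPM left and 10.3 CPM right, and Cdk9, the kinase of P-TEFb, 8.38 and 7.89 CPM. The lowest unadjusted p in the list were those of Srsf2, a splicing factor that binds 7SK (0.06, SE 0.03, higher on the right in 5 of 5 mice, as were 2.78% of all genes), and Ell2, an elongation factor (0.14, SE 0.09, higher in 4 of 5). Between mice, 2 of the 21 had an unadjusted F-test p under 0.05, against 13.8% of all genes tested.

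Of 13 genes of the signal recognition particle, its receptor and the Sec61 channel, 6 were higher and 7 lower on the right, with a median of −0.01. Sec61g differed by −0.13 (SE 0.07) and Srp54b by −0.12 (SE 0.08), and Srp54b has close copies, Srp54a and Srp54c, among which reads may be shared. Between mice 5 of these 13 had an unadjusted p under 0.05, against 13.8% of all genes, and none passed. Sec61g and Srp54b, like the 7SL pair, were highest on the left in mouse 61, with 2.21 CPM against 1.08 to 2.02 CPM elsewhere for Sec61g and 12.04 CPM against 6.78 to 10.4 CPM elsewhere for Srp54b. This was not particular to them. The median of centred values was also highest in that library, at 0.116 log2 units for genes under 800 bases and 0.0435 for those of 2000 bases or more. The share of all genes highest there was not counted.

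The 11 protein genes of RNase P and RNase MRP were all weakly expressed, from 1.18 CPM (Rpp40) to 6.68 CPM (Pop4) on average. On the right 5 were higher and 6 lower, with a median of −0.02. In either limma test 0 had an unadjusted p under 0.05. Of all genes tested, 2.34% had one between the sides and 13.8% between mice. Rpp25 differed by −0.15 (SE 0.07), with 5 of 5 mice lower on the right, as were 2.01% of all genes tested. Pop7 differed by −0.09 (SE 0.07), with 4 of 5 mice lower. Of the 31 genes of RNA polymerase III and its factors, 17 were higher and 14 lower on the right, with a median of 0.01 and a range of −0.09 to 0.07. Polr3gl, a polymerase subunit (−0.09, SE 0.06), and Tbp, the TATA-binding protein (0.05, SE 0.04), had the lowest unadjusted p. Between mice, 3 of the 31 had an unadjusted F-test p under 0.05, against 13.8% of all genes tested.

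Among the other small structured RNAs, 12 of the 26 reached a mean of 1 CPM. Of these 12, 11 were lower on the right on average, as were 48.9% of all genes tested, with a median of −0.09. These rows are not independent: Scarna10, Scarna13, Snord17 and Snora73a were each lower on the right in mice 61, 64 and 68 and higher in mice 65 and 66. Scarna2 was higher on the right in 3 of 5 mice and Rn7s6 in 1 of 5. The count thus says little about the side. None passed or had an unadjusted limma p under 0.05. Rnu12, the U12 RNA of the minor spliceosome, differed by −0.42 (SE 0.24) and was highest on the left in mouse 66, with 6.52 CPM against 1.18 to 2.71 CPM elsewhere. Rn7s6 differed by −0.10 (SE 0.06). Bc1, a brain cytoplasmic RNA of polymerase III, ranged from 7.35 to 13.1 CPM, and Rny1, a Y RNA, from 1.02 to 6.27 CPM. Of 12 symbols for ribosomal RNA and rows known to collect it, 6 were in the table, and they summed to 7.64 to 16.97 CPM. Of the 3 that were tested, mt-Rnr2, a mitochondrial ribosomal RNA, was higher on the right in 4 of 5 mice (0.39, SE 0.15), with an unadjusted limma p of 0.0286 and an adjusted p of 0.9996, and Gm26917 differed by 0.12 (SE 0.12).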

How the data were processed

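Total RNA of 10 retinas was sequenced with a strand-specific kit after ribosomal RNA depletion, per the labels' protocols. The authors' deposited values were read as CPM with 0.0001 added to each, from the values themselves: the step between low values gives 89.7 to 113.8 counts per CPM, and 90.5% to 91.6% of low values were whole multiples within 0.1. The submitters' processing notes list STAR, Partek and the build GRCm38 (mm10). How reads were counted, and what was done with reads of several matches, is not given in the sources used here. Deposited stops were lowered by 1 base, as 25124 of 25272 symbols found in GENCODE M21 end there.

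The 0.0001 was taken off and log2(CPM + 1) was fitted for 14210 genes averaging 1 CPM or more, which all 7 members passed. Right minus left was tested with limma 3.58.1 (R 4.3.3, variance trend, two-sided) with the mouse as a block, and mice were compared with limma's moderated F-test. P-values were adjusted by Benjamini-Hochberg over all tested genes at a threshold of 0.05. The script was tested on simulated data. With 5 pairs an exact sign-flip test cannot give a two-sided p below 0.0625, and none was run. The titles give both retinas of an animal the same number. The correlation of their deviations from the side means, across genes, was 0.607 for mouse 61, 0.144 for mouse 64, 0.166 for mouse 65, 0.172 for mouse 66 and 0.311 for mouse 68. Relatives were searched with blastn 2.17.0 (plus strand, E-value up to 1e-10). Members and lists were chosen with earlier results of these data known. Named genes are the members, the 2 genes of lowest p in each list where none passed, the most abundant rows and the 4 nearest profiles. Some genes and sequences that this rule takes in are not reported here. Others named were chosen after their values were seen. Alternatives were other pseudocounts, no filter, other scalings, no block and leaving out each mouse.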

Additional observations from a re-analysis of the deposited data

Results flagged for a closer look

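The 7SL rows of mouse 61 stood apart within the right retinas. Rn7s1 and Rn7s2 measured 10650.5 CPM each there, and the other 4 right retinas lay between 7402 and 8156 CPM. The gap to the nearest library was 0.768 of the whole range, above the critical value for 5 values. The sum of the pair, 21301 CPM, and the shares of the listed total, 3.18% for each row and 6.37% for the sum, stood apart in the same library. These 6 results are 1 measurement in several forms, since both rows hold the same values. The left retina of mouse 61 was the highest left library too, at 24033.6 CPM for the pair, but did not stand apart by this measure. In 40 groups of 5 values looked at, chance would mark about 1 in 20.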

How the results depend on the processing

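None of the members passed right against left under 11 alternatives or the test between mice under 10 (lowest adjusted p 0.985 and 0.067). Right against left called 0 genes in all of them, with no replicate block included (188 genes at an unadjusted p under 0.05, against 333 with the mouse as a block). Rn7sk and the 7SL rows were lower on the right in each alternative, by 0.07 to 0.10 and 0.09 to 0.22 log2 units. Of 77 member values 6 changed sign, each when a mouse was left out. Leaving out each mouse gave −0.27 to 0.036 for Rpph1, −0.12 to 0.18 for Rmrp, −0.070 to 0.10 for Larp7 and −0.0071 to 0.051 for Hexim1. Larp7 and Hexim1 were below 0 only without mouse 64 (−0.070 and −0.0071), Rmrp without mouse 65 (−0.12) or mouse 66 (−0.12), and Rpph1 was above 0 without mouse 61 or mouse 64 (0.036 each). The cause was not tested. The number of genes differing between mice, 81, ran with 1 mouse left out from 23 without mouse 61 to 88 without mouse 64, and was 53 without mouse 66 and 39 without mouse 68. Under the other settings it ran from 66 with no filter to 93 with median-ratio size factors. Over the full denominator of the deposited values the members' share was 3.77% on the left and 3.43% on the right, and without Rn7s1 and Rn7s2 it was 5.61% and 5.31% of the listed total. With 7SL counted once, an alternative chosen after seeing the data, it was 8.74% and 8.09%. All 3 follow from the change of numerator or denominator.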
